A study of Caenorhabditis elegans with 2 samples.

Results

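Of the 1473 reproducible SNPC-1.1 peaks on the nuclear chromosomes, 397 lay far from any annotated gene start. A peak was counted as far, or distant, when no gene of any biotype in the Ensembl annotation of WBcel235 (the ce11 assembly) began within 500 bp of its summit. The distant peaks made up 27.0% of the nuclear peaks (exact 95% binomial interval 24.7 to 29.3%), out of 1500 peaks in the whole list, 27 of which were mitochondrial. Intervals here cover counting error only. The choice used positions and no measured signal.

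The data were 2 biological replicates of chromatin immunoprecipitation with sequencing in Caenorhabditis elegans strain YL482. Both came from whole young adult hermaphrodites that carry a transgene fusing GFP and FLAG to the C terminus of snpc-1.1 (C06A8.2), and the precipitation was done with an antibody against GFP. The replicates formed the only group, so there was no second genotype, treatment or age to compare. Tissues were not separated, so the cells in which a peak was bound cannot be told apart, and a control library named as possible in the labels was not analysed here.

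SNPC-1.1 is a worm relative of SNAPC1, a subunit of the human complex SNAPc that activates small nuclear RNA genes. SNAPc binds a proximal sequence element just upstream of genes for spliceosomal U RNAs and other short noncoding RNAs, and recruits RNA polymerase II or RNA polymerase III. Peaks away from annotated starts therefore have no gene start of their own to be assigned to.

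The distant peaks fell into 170 in introns, 169 between genes and 58 in exons. Introns held 42.8% (37.9 to 47.9%), intergenic sequence 42.6% (37.7 to 47.6%) and exons 14.6% (11.3 to 18.5%). Of 693510 windows of 101 bp tiled over all sequence more than 500 bp from a gene start, 37.9% were centred in introns, 30.3% between genes and 31.9% in exons. Exons thus held a lower share of distant peaks than of the sequence that could hold one, and intergenic sequence a higher share. A DNA element that was learned from peaks at small RNA genes was found within 50 bp of the summit in 119 distant peaks, most of them intronic. A set of 92, of which 5 held the element within 50 bp, lay within 200 bp of the 3' end of a protein-coding gene.

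The element was learned without any distant peak, from the 185 peaks near the starts of U snRNA, SL2 spliced leader or snoRNA genes. The SL2 RNA is a spliced leader that is joined to downstream messages of worm operons, and snoRNAs guide the modification of ribosomal RNA. The commonest 8-base word of those peaks, against flanks 1000 bp away, seeded a matrix of 28 positions. Its 21-base core read, in the letters found in over 50% of the aligned sites, GCGGAACC at its start and TGTCGG at its end. The matrix was not compared here with a published element. Among the 79 training peaks that held it, 78 had it on the strand of the RNA gene, with its middle a median of 53.5 bp before the annotated start (quartiles 52.5 and 54.5 bp). A match was a score exceeded by 1 in 1000 of the tiled windows. A match counted as within 50 or 100 bp of a summit when all 28 positions lay inside that distance.

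The sequences show how closely distant peaks share this core with small RNA genes. Each is read from the RefSeq WBcel235 genome, 5' to 3' on the strand of the match, and capitals mark the 21-base core. The first pair are the strongest matching peaks at small RNA genes that could be shown: Y53F4B.47, with a signal of 2984, and the SL2 gene sls-2.16, with 2915.
Y53F4B.47 upstream, chrII:15025939-15025998 (-): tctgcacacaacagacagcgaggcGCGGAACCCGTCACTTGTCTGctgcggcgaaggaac
sls-2.16 upstream, chrIII:7141304-7141363 (+): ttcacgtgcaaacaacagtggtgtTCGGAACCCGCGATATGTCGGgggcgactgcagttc

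The next 6 are the strongest distant peaks with the element outside any group of related sequences.
sre-45 intron, chrII:13521997-13522056 (+): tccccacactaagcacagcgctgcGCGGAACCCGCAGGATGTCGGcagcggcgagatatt
C23G10.1 intron, chrIII:6210329-6210388 (+): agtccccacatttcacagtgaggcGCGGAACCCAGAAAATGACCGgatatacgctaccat
C33B4.4 intron, chrII:11376953-11377012 (-): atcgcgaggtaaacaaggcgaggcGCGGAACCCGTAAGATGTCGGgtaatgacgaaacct
between K08B5.1 and ser-1, chrX:16565913-16565972 (+): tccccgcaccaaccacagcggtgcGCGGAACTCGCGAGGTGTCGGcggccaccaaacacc
hgap-2 intron, chrII:8670998-8671057 (+): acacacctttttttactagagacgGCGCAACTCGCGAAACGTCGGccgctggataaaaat
between T26G10.1 and T26G10.3, chrIII:9408491-9408550 (+): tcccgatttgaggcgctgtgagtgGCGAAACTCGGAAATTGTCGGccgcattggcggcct
At these 6 peaks 14 to 18 of the 19 defined core positions carried the commonest letter, against 16 and 18 in the pair above. Over all matches the median was 16 of 19 in the 119 distant peaks (range 12 to 19) and 16 of 19 in the 79 small RNA peaks (range 13 to 19). The score threshold sets the low end of both ranges.

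The signal value of each peak is the authors' own score, on a scale that the files do not state, and serves here only to rank peaks within a list. The lists give no read totals, so the depth behind a value is unknown, and with 1 group no test between conditions was possible. Over the distant peaks it ran from 58.9 to 1585 with a median of 81.7 (interval 78.2 to 87.0), against a median of 85.4 (83.1 to 88.9) and a highest value of 2984 for the other 1076 nuclear peaks. Distant peaks took 9 of the 100 highest places in the list, 46 of the first 250 and 110 of the first 500. They were therefore scarcer at the top of the list than their share of 27.0%. Intronic peaks had a median of 88.2 (82.9 to 92.3), intergenic peaks 78.9 (74.3 to 83.9) and exonic peaks 76.4 (70.5 to 81.7).

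**Figure D1:**
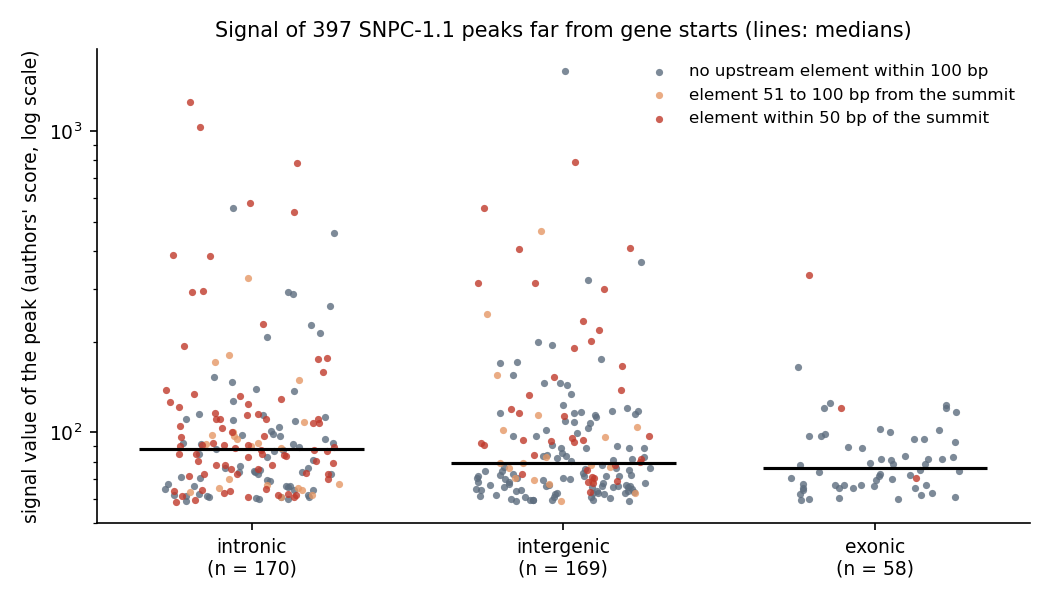
Signal value (authors' score, log scale) of each of the 397 distant peaks by position, with horizontal lines at the medians of 88.2, 78.9 and 76.4. Red points hold the whole match within 50 bp of the summit. Orange points, labelled 51 to 100 bp, hold the whole match only within 100 bp. Grey points have no match within 100 bp. Red points lead the intronic column.

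The strongest distant peak lay between egrh-2, which encodes a zinc finger protein of the EGR family, and lep-2, which encodes a Makorin-type zinc finger protein. Its signal was 1585, with 677 in replicate 1 and 948 in replicate 2. It did not reach the match score, but its best run matched 13 of the 19 defined positions.

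The second peak lay in a 1599 bp intron of sre-45, which encodes a chemoreceptor of the serpentine class. Its signal was 1251, with 515 in replicate 1 and 767 in replicate 2. The third lay in a 1762 bp intron of C23G10.1 and had a signal of 1029, with 445 and 602 in the replicates. Both passed the match score, with the sequences shown above.

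A peak between tin-13, for a mitochondrial protein import chaperone, and lmn-1, for the nuclear lamin, had a signal of 787, with 317 in replicate 1 and 477 in replicate 2. The peak in a 7040 bp intron of C33B4.4 had 782, with 330 and 457. The intron of clec-80, a C-type lectin gene, followed with 578, and 254 and 351. All of them held the element.

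The intron of Y46G5A.34 held a peak of 554, with 226 in replicate 1 and 327 in replicate 2, whose best run fell short of the match score. A pair of peaks lay 622 bp apart between K08B5.1 and ser-1, a serotonin receptor gene, both with the element. The first had 554, with 283 and 272 in the replicates. The second had 405, with 186 and 230. The intron of hgap-2 held a peak of 539, with 190 and 368. In 9 of these 10 peaks replicate 2 had the higher value, and the first peak by ser-1 was the exception.

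The other peaks among the first 20 had signals from 314 to 466. They lay between K09H9.7 and K09H9.1, in an intron of W04A8.6, between T26G10.1 and T26G10.3, in an intron of D2024.18, and in an intron of dcs-1, the scavenger decapping enzyme gene. The rest lay between F53F8.7 and F53F8.5, in an exon of the noncoding gene linc-109, in an intron of the riboflavin transporter gene rft-2, between F32A5.4 and ctsa-3.1, and between F42E8.1 and C34B4.3. Of the 25 strongest distant peaks, 17 had the element within 50 bp and 19 within 100 bp.

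The strongest distant peaks without a match included runs that resemble the core, shown with the best-scoring 21 bases in capitals.
between egrh-2 and lep-2, chrIV:991200-991259 (+): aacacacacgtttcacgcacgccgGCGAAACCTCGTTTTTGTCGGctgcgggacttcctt
Y46G5A.34 intron, chrII:12778500-12778559 (-): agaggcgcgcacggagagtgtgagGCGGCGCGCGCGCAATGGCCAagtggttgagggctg
In the second of them the capitals run into the letters GCNNAGTGG, the A box found inside tRNA genes. The marked run and the A box letters thus overlap in this peak, within 50 bp of its summit. Its signal of 554 was the highest of the 9 distant peaks with these letters on either strand, and srt-52 followed with 139. The 9 peaks were 2.27% of the distant peaks (1.04 to 4.26%), against 5.20% of the other nuclear peaks and 0.432% of tiled windows. The B box letters GTTCGANNC were in 3 distant peaks, or 0.756% (0.156 to 2.19%), against 9.76% of other peaks and 0.710% of tiled windows. Those 3 lay between mltn-13 and F02E8.4, in the wago-1 exon and in an intron of Y55F3BR.2, with signals of 70.8, 66.7 and 61.6. The B box share of distant peaks thus did not stand above that of the tiled windows. The A box share did, although 3 of its 9 peaks belonged to 1 group of related sequences.

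The element was in 119 of 397 distant peaks, or 30.0% (25.5 to 34.7%). The same score was reached by 4.03% (2.57 to 5.98%) of the 571 peaks at protein-coding starts, by none of the 235 peaks at tRNA starts (upper bound 1.56%) and, by construction, by 0.100% of tiled windows. The 85 peaks at starts of other gene types reached it in 26, or 30.6% (21.05 to 41.5%), a share like that of the distant peaks. The 185 training peaks reached it in 42.7%, which is no independent value. Among distant peaks it was found in 45.9% of intronic peaks (78 of 170; 38.2 to 53.7%), 22.5% of intergenic peaks (38 of 169; 16.4 to 29.5%) and 5.17% of exonic peaks (3 of 58; 1.08 to 14.4%). The intronic and intergenic intervals did not overlap. They count each peak as independent, although 82 of the 119 peaks with the element belonged to groups of related sequences. In tiled windows the shares were 0.173% for introns, 0.105% between genes and 0.00905% in exons, in the same order.

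**Figure D2:**
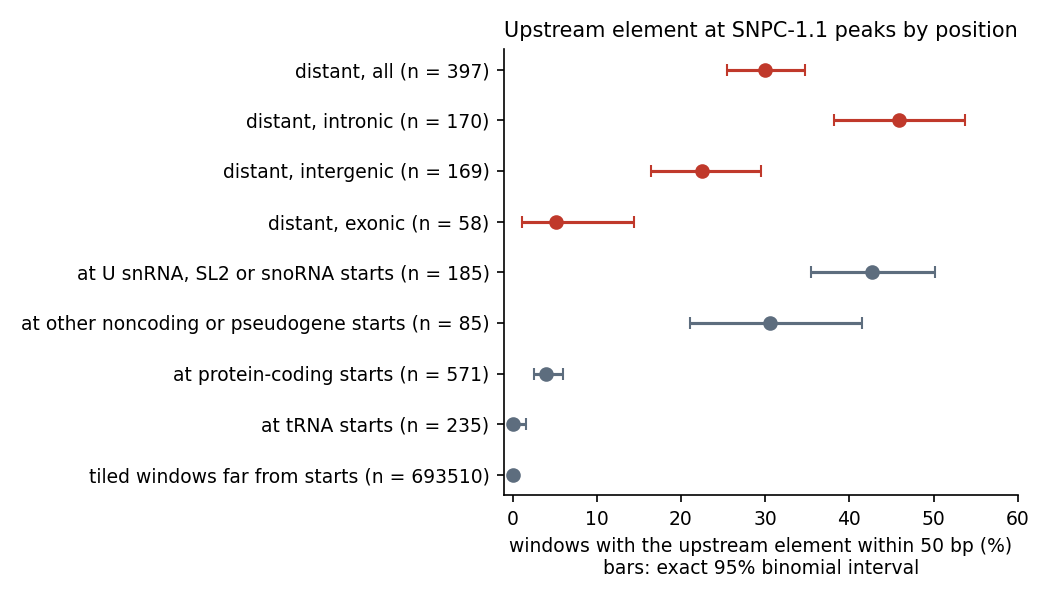
Share of peaks (horizontal axis, %) with the upstream element within 50 bp of the summit, by position, with exact 95% binomial intervals and the number of peaks in brackets. Intronic distant peaks (45.9%) and peaks at U snRNA, SL2 or snoRNA starts (42.7%, the training set) had similar shares, while peaks at tRNA starts had 0.

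Any of the 10 commonest 8-base words of the training peaks, on either strand, was in 100 of 397 distant peaks, or 25.2% (20.99 to 29.8%), against 22.4% (14.03 to 32.7%) of peaks at starts of other gene types and 5.43% of peaks at protein-coding starts. The leading word, CGGAACCC, lies inside the core.

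Searching 100 bp either side of the summit added 41 peaks and gave 160 of 397, or 40.3% (35.4 to 45.3%), against 5.78% at protein-coding starts and 0.215% of tiled windows. On this wider search 58.8% of intronic peaks (51.03 to 66.3%) and 33.7% of intergenic peaks (26.6 to 41.4%) held the element, and exonic peaks stayed at 5.17%. When it was within 50 bp, the middle of the match lay a median of 17.5 bp from the summit.

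Peaks with the element had higher signal, with a median of 93.3 (87.7 to 107) against 76.1 (72.9 to 81.1) for the 278 without it. The element was in 47 of the 100 strongest distant peaks, 33 of the next 100, 25 of the 100 after those and 14 of the weakest 97. In replicate 1 alone the medians were 41.1 (36.9 to 45.0) with the element and 32.5 (29.6 to 36.1) without, and in replicate 2 they were 57.1 (53.5 to 63.1) and 48.7 (45.9 to 51.1). Both replicates thus had the same order. The replicates share the strain, and the peak list was made from both.

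The element's strand did not follow the host gene. In the 75 intronic peaks with the element and a single protein-coding host, it lay on the host's strand in 38, or 50.7% (38.9 to 62.4%). Of the 73 protein-coding hosts of intronic peaks with the element, 2 had a peak at their own start, or 2.74% (0.334 to 9.55%), an interval that holds the 4.20% of all nuclear protein-coding genes. Intronic distant peaks lay in introns with a median length of 632 bp (569 to 728 bp). The median around intronic tiled windows was longer, at 973 bp. The intervals of these medians did not overlap. A first intron held 38 of the 170 peaks. No share of tiled windows was computed beside this count, and the 500 bp limit leaves out sequence just after gene starts.

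Letters around the element were compared with those at small RNA genes. ATAG stood in the 24 bases before the core, on the strand of the match, in 66 of the 119 distant peaks, or 55.5% (46.1 to 64.6%), against 24.1% (15.1 to 35.0%) of the 79 small RNA peaks and 5.89% of tiled stretches of equal length. ATAG was not among the motifs planned for the search. Many of the distant peaks share sequence, so their letters are not independent. Among the 34 with a single copy the share was 44.1% (27.2 to 62.1%), which overlaps the small RNA interval, and 51 of the 85 with more copies had the letters (48.8 to 70.5%).

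The letters TATAAA, as in many core promoters, were in the 40 bases after the core in 1 of 119 distant peaks, or 0.840% (0.0213 to 4.59%), against 6.33% (2.09 to 14.2%) of the small RNA peaks and 2.27% of tiled stretches. Within 50 bp of the summit, on either strand, TATAAA was in 10.3% of distant peaks, 8.92% of other peaks and 10.8% of tiled windows. CTGTTTC, the core of the motif upstream of many worm piRNA genes, was in 4 distant peaks, or 1.01% (0.275 to 2.56%), against 1.21% of other peaks and 1.51% of tiled windows. GAGAGAGA was in 2, or 0.504%, against 0.743% and 0.604%. Runs of TTTTT, the terminator signal of RNA polymerase III, were in 30.3% of distant peaks with the element (22.2 to 39.3%), 57.2% of those without it (51.1 to 63.1%), 54.4% of other peaks and 67.9% of tiled windows. Only the last of these separated the distant peaks with the element from the tiled windows. The element is rich in G and C, and median GC content was 53.5% with it and 43.1% without it. The part of base composition in the TTTTT shares was not tested.

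Much of the element lay in repeated sequence. Of the 119 peaks with it, 85, or 71.4% (62.4 to 79.3%), had more than 1 copy of their 201 bp window in the genome, counting alignments of at least 100 bp and 80% identity, and 63 had 10 or more. Of the 278 without it, 28.4% (23.2 to 34.1%) had more than 1 copy. Soft-masked repeats covered the summit in 35.5% of distant peaks (30.8 to 40.4%), against 37.0% of tiled windows. Over all distant peaks, repeats as annotated in the genome were thus no commoner than in the sequence at large. The share was 44.5% (35.4 to 53.9%) with the element and 31.7% (26.2 to 37.5%) without it. Every 36-base word of the 101 bp window occurred once in the genome in 303 of 397 peaks, and under 50% of the words did in 26. How reads from repeated sequence were assigned is not given in the sources used here, and its part in these signals was not tested.

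Comparing the distant peaks with each other, by alignments of at least 80 bp and 80% identity, put 141 of them into 7 groups of 3 or more. The largest group had 87 members on all 6 nuclear chromosomes, 55 in introns and 32 between genes. Their signals ran from 58.9 to 787 with a median of 90.5, and their windows had a median of 30 copies. The element was within 50 bp in 64 of them and within 100 bp in 84. Its strongest member was the peak between tin-13 and lmn-1. The 3 next strongest with a match within 50 bp are shown, with the core in capitals.
clec-80 intron, chrIV:2825884-2825943 (-): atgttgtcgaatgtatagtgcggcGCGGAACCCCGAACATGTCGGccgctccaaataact
between Y41D4A.7 and col-108, chrIV:1763665-1763724 (+): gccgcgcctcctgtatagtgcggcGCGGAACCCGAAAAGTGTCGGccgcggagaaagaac
between msp-50 and ampd-1, chrII:5200379-5200438 (+): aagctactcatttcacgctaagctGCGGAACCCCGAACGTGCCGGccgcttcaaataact
In each of them ccg follows the core, as it does in the hgap-2 intron and between T26G10.1 and T26G10.3.

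The second group had 25 members, 14 in introns, 9 between genes and 2 in exons, with signals from 61.3 to 385 and a median of 139 copies. The element was within 50 bp in 13 and within 100 bp in 20. The peak between F53F8.7 and F53F8.5, with a signal of 368, belonged to it without a match inside 50 bp. The 3 strongest with the element differed from each other at few bases, which is why they are set together.
dcs-1 intron, chrV:20088592-20088651 (-): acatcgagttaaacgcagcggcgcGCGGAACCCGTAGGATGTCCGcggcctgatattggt
linc-109 exon, chrIII:10733421-10733480 (+): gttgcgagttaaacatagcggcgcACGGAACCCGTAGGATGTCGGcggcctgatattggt
between Y97E10AR.6 and sptl-2, chrV:8014922-8014981 (+): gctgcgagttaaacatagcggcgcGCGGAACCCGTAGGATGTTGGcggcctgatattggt

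The fourth group, of 6 peaks, included the rft-2 intron, with a signal of 324, with 104 in replicate 1 and 226 in replicate 2. A second rft-2 peak, 202 bp away with 71.1, overlapped the same replicate regions and so has the same replicate values. The group also held the intron of nhr-28, a nuclear hormone receptor gene, with 139, 76.8 and 69.3. The core stood within 100 bp of the summit in 5 of the 6. The printed bases before the core were searched for perfect inverted arms, and the core itself was left out. The longest pair found was 21 bases each in rft-2 with 22 bases between them, and 22 bases each in nhr-28 with 23 between. In rft-2 the first printed bases are also the reverse complement of most of the core. Its inverted repeat thus takes in the core, and its full length was not measured.
rft-2 intron, chrV:4447661-4447803 (+): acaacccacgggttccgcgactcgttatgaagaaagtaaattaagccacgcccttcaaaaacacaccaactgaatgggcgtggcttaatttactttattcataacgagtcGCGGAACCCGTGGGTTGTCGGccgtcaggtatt
nhr-28 intron, chrX:16357731-16357873 (-): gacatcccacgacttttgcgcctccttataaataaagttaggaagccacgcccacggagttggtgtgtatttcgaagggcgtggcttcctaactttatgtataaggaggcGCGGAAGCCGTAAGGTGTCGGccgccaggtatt

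The third group, of 13 peaks on 5 chromosomes, had no match within 100 bp in any member. Its signals ran from 62.3 to 146 with a median of 87.0, and its windows had a median of 54 copies. The strongest member, between cct-4, a chaperonin subunit gene, and nlp-55, a neuropeptide-like gene, had 146, with 50.7 and 99.7 in the replicates. It is shown beside the member that shared the longest run with it, and capitals mark the 117 identical bases.
between cct-4 and nlp-55, chrII:8285958-8286154 (+): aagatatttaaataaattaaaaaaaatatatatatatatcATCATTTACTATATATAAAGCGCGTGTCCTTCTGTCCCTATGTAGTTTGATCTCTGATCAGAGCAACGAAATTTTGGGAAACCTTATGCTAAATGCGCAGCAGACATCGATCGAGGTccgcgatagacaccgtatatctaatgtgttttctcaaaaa
between npr-17 and C06G4.6, chrIII:7997589-7997785 (+): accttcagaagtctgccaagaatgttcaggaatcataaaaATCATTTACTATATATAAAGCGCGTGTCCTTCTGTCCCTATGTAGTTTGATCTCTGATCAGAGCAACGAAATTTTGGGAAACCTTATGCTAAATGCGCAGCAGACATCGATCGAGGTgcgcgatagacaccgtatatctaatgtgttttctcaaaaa

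The other groups had 4, 3 and 3 members. The 4 all held the element, led by the intron of F21D9.2 with a signal of 90.8, the intron of trp-4, a TRP channel gene, with 77.7, and a site between T05D4.5 and act-5, an actin gene, with 68.3. The first group of 3 all held the A box letters and no element, at srt-52, between Y82E9BL.3 and Y82E9BL.1, and between ssp-31 and ZK1053.1, with 139, 69.3 and 59.1. The last 3 held neither element nor B box and lay between genes, at CD4.11 and vps-37 with 109, at F09E5.7 and srg-69 with 80.8, and at C14C11.7 and pqn-13 with 71.9.

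Peaks with a single copy were also found among those with the element. There were 34, with a median signal of 129 (88.6 to 229), against 90.8 (83.5 to 97.1) for the 85 with more copies, so the element was not confined to repeats. They included sre-45, C23G10.1, C33B4.4 and hgap-2.

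The distant peaks were spread over all chromosomes, from 4.83 per Mb of far sequence on X to 7.41 on III. The counts were 64 on I, 54 on II, 78 on III, 65 on IV, 73 on V and 63 on X. Peaks with and without the element had opposite patterns. With it, X held 39 of 119, or 32.8% (24.4 to 42.0%) and 2.99 per Mb, against 1.22 to 1.65 per Mb on the autosomes. Without it, X held 24 of 278, or 8.63% (5.61 to 12.6%) and 1.84 per Mb, against 3.30 to 6.08 per Mb on the autosomes.

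**Figure D3:**
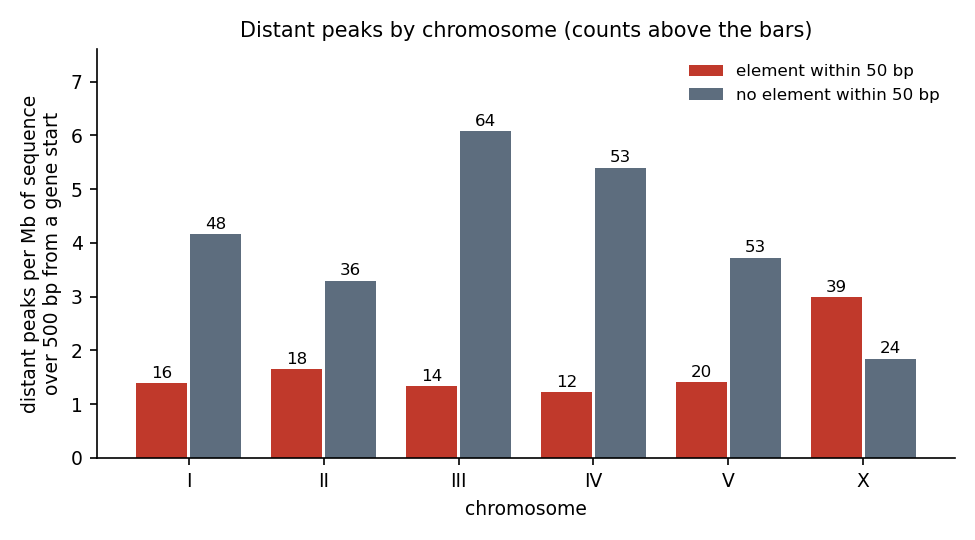
Distant peaks per Mb of sequence more than 500 bp from a gene start (vertical axis) on each nuclear chromosome, with the element within 50 bp (red) or without it (grey), and the counts above the bars. X has the highest red bar (2.99 per Mb) and the lowest grey bar (1.84 per Mb).

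The element itself was more frequent on X, which held 33.7% (30.2 to 37.4%) of tiled windows with a match and 18.6% of all tiled windows. The largest group of related sequences had 38 of its 87 members on X. Among the 37 peaks with the element in no group, X held 8, or 21.6% (9.83 to 38.2%). Peaks with the element also lay towards chromosome ends: 76.5% (67.8 to 83.8%) were in the outer 25% at either end, against 47.5% (41.5 to 53.5%) of those without it, 89.6% of tiled windows with a match and 50.9% of all tiled windows. The peaks with the element thus lay between all tiled windows and those with a match in the outer regions.

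Not every copy of the element was a peak. Far from gene starts the genome held 982 separate matches. Of them, 199, or 20.3%, had a reproducible summit within 100 bp. A region of the authors' longer pooled list lay at 577, or 58.8%. That list holds background as well as peaks, so the 577 are not shown to be bound. The share of all tiled windows with a region of that list was not computed. The share with a reproducible summit was 11.7% in the lowest-scoring quartile of the matches, then 16.0%, 24.4% and 29.0% in the highest. By chromosome it ran from 17.1% on V to 30.7% on III, with 19.5% on X. Thus X had more matches, 308 of 982, but no higher share of them under a reproducible peak.

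The other large set lay at gene ends. Within 200 bp of a protein-coding 3' end there were 92 distant peaks, or 23.2% (19.1 to 27.6%), against 6.63% of tiled windows and 16.6% (14.5 to 19.0%) of other nuclear peaks. They lay downstream of the end in 63 of 92, at a median of 36.5 bp past it (interval 14 to 68 bp). Of the 58 exonic peaks, 45 were in 3' UTRs, 8 in coding exons, 4 in noncoding exons and 1 in a 5' UTR, and 46 intergenic peaks were also near a 3' end. The element was within 50 bp in 5 of the 92, or 5.43% (1.79 to 12.2%), and within 100 bp in 8. Their GC content had a median of 34.7%, against 53.5% for peaks with the element.

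**Figure D4:**
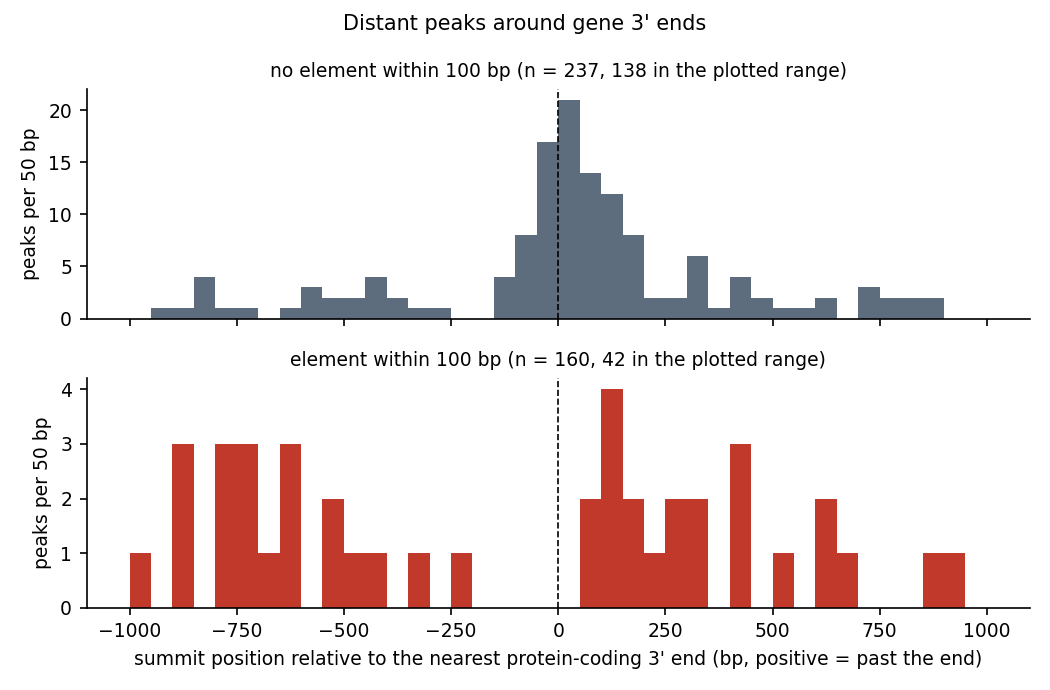
Number of distant peaks in 50 bp bins (vertical axis) by the position of the summit relative to the nearest protein-coding 3' end (horizontal axis, bp, positive past the end), for 237 peaks with no element within 100 bp (top) and 160 with it (bottom). Peaks within 1000 bp of an end are drawn and the vertical scales differ; the top panel is highest just past the end, while the bottom panel has no summit within 50 bp of it.

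Signals of these 92 peaks ran from 59.8 to 314 with a median of 78.2 (73.0 to 81.7). In replicate 1 they ran from 15.03 to 128 with a median of 33.1, and in replicate 2 from 16.2 to 184 with a median of 49.2. The strongest, between F42E8.1 and C34B4.3, ranked 20 among the distant peaks. They were 12 of the 100 strongest distant peaks and 33 of those ranked 201 to 300, so they sat lower in the list than peaks with the element.

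Their genes often had a peak at the start as well. Of the 92 genes, 29, or 31.5% (22.2 to 42.0%), did, against 4.20% of all nuclear protein-coding genes. Of all 19973 nuclear protein-coding genes, 0.461% had a distant peak near the 3' end and 1.03% hosted a distant peak. Of the listed germline genes, 4 of 28 had a peak near the 3' end: car-1, pos-1 and puf-3, which encode RNA-binding proteins, and rme-2, the yolk receptor gene. The first 3 were in 3' UTRs. None of the listed 25 muscle, 31 neuronal, 18 intestinal, 19 hypodermal or cuticle, and 21 RNA polymerase III and SNAPc genes hosted a distant peak or had one near the end, and with lists of this size 0 cannot be told apart from the shares over all genes. Of 35 developmental transcription factors, lin-29, a zinc finger gene of larval timing, hosted 1.

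The car-1 peak had a signal of 65.5, with 47.4 in replicate 1 and 22.3 in replicate 2. The pos-1 peak had 71.7, with 34.0 and 50.4, and the puf-3 peak had 83.3, with 30.0 and 59.4. The rme-2 peak had 70.5, with 41.1 and 39.6. Replicate 1 had the higher value in car-1 and, by little, in rme-2, and replicate 2 in the others. The lin-29 peak, in a 3' UTR and 77 bp past the end of the facing gene hmg-12, had 88.9, with 37.8 and 59.5.

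A further 4 hosts, hrde-1, csr-1, prg-1 and wago-1, encode Argonaute proteins; they were picked after their values were seen, from no list, and no share was tested. The hrde-1 peak, in a 3' UTR, had 100.5, with 46.1 in replicate 1 and 63.8 in replicate 2. The csr-1 peak, also in a 3' UTR, had 97.04, with 56.5 and 53.3. The prg-1 peak, in a 3' UTR and 27 bp past the end of D2030.12, had 125, with 28.9 and 93.2. The wago-1 peak, in a 3' UTR, had 66.7, with 24.5 and 49.2. The replicates were close at csr-1 and far apart at prg-1.

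Ribosomal protein genes, also picked after the values were seen, were 9 of the 92 genes, or 9.78% (4.57 to 17.8%), against 78 of 19973 nuclear protein-coding genes, or 0.391%. They were rpl-3, rpl-7A, rpl-11.1, rps-2, rps-6, rps-8, rps-11, rps-13 and rps-27. The strongest, at rpl-11.1, had 144, with 71.0 in replicate 1 and 62.1 in replicate 2, and lay 102 bp past the end. The weakest, at rps-27, had 61.4, with 23.1 and 37.5. Most of the 9 lay past the end, with rpl-3 and rps-8 as the exceptions, just inside it.

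Host genes with 3 or more distant peaks were egl-8, which encodes a phospholipase C beta, and H40L08.3. The egl-8 introns held 4, with signals of 72.5, 89.6, 110 and 67.2, none with the element within 50 bp. In replicate 1 they had 22.9, 35.7, 23.3 and 22.9, and in replicate 2 56.1, 53.5, 83.6 and 45.2. The 3 in H40L08.3 introns, with 107, 67.5 and 71.5, all belonged to the largest group of related sequences. In all, 214 genes hosted a distant peak and 11 of them more than 1. Of the peaks in genes, 219 lay in protein-coding genes, 7 in pseudogenes and 2 in lincRNA genes.

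A remainder of 104 peaks had no element within 100 bp, no 3' end within 200 bp, no place in a group of 3 or more related distant peaks and no weaker match. A weaker match was a score exceeded by 1 in 100 tiled windows, which was 13.1, and was searched only within 50 bp of the summit. The 104 can thus hold weaker matches farther out or scores just below the cut, such as 12.8 between F54E7.6 and par-3. Of these 104, 57 were intergenic, 39 intronic and 8 exonic, and their signals ran from 59.2 to 320 with a median of 72.0. The strongest, between F32A5.4 and ctsa-3.1, had 320, with 153 in replicate 1 and 168 in replicate 2. The next, in an intron of scc-2, a cohesin loader gene, had 214, with 78.0 and 145. They were chosen after the values were seen.

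The distance to the nearest gene start had a median of 1286 bp (quartiles 847 and 2230 bp), and 22 peaks lay more than 5000 bp away. The farthest, at 22504 bp, lay in an intron of egl-4, which encodes a cGMP-dependent protein kinase. An annotated alternative transcript start was within 500 bp in 31. Of the members just inside the limit, a peak in an intron lay 505 bp from the start of srg-61 with a signal of 158 and the element. The next lay 516 bp from K12H4.5 with 135 and 517 bp from linc-27 with 69.8. Just outside it, the peaks by pgl-3 at 500 bp and by gly-9 and lips-13 at 498 bp had 65.7, 81.4 and 82.1. The signals on either side of the limit overlap.

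Most distant peaks overlapped a strong region in each replicate's own list. The reproducible list was made from both replicates, so this overlap was largely fixed in advance. The replicate value of a peak is the signal of the strongest overlapping region in that replicate's own list. Of the 397, 301, or 75.8% (71.3 to 79.95%), overlapped one of the 1500 strongest regions of replicate 1, and 321, or 80.9% (76.6 to 84.6%), one of those of replicate 2. For the other nuclear peaks the shares were 76.4% and 85.7%. With the element they were 88.2% (81.0 to 93.4%) and 85.7% (78.1 to 91.5%), and without it 70.5% (64.8 to 75.8%) and 78.8% (73.5 to 83.4%). All 397 had some region in replicate 2 and 394 in replicate 1. Those lacking one were mut-16, a site between Y102A5C.36 and fbxa-148, and a site between capa-1 and egl-6. The whole lists include background, with 29523 regions in replicate 1 and 26195 in replicate 2, so these counts do not show binding.

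Across the 394 peaks with both values the Spearman rank correlation of the replicates was 0.58, given as a description. It was 0.78 over the 118 peaks with the element and 0.46 over the 276 without. Signal quartiles were 76.8 and 136 over all peaks with the element, and 66.2 and 100 over all those without. The correlations thus cover unlike ranges and are not directly comparable. Some neighbouring peaks also share the same replicate values. All points share the 2 libraries. The median ratio of replicate 2 to replicate 1 was 1.48, with quartiles of 1.16 and 1.95.

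**Figure D5:**
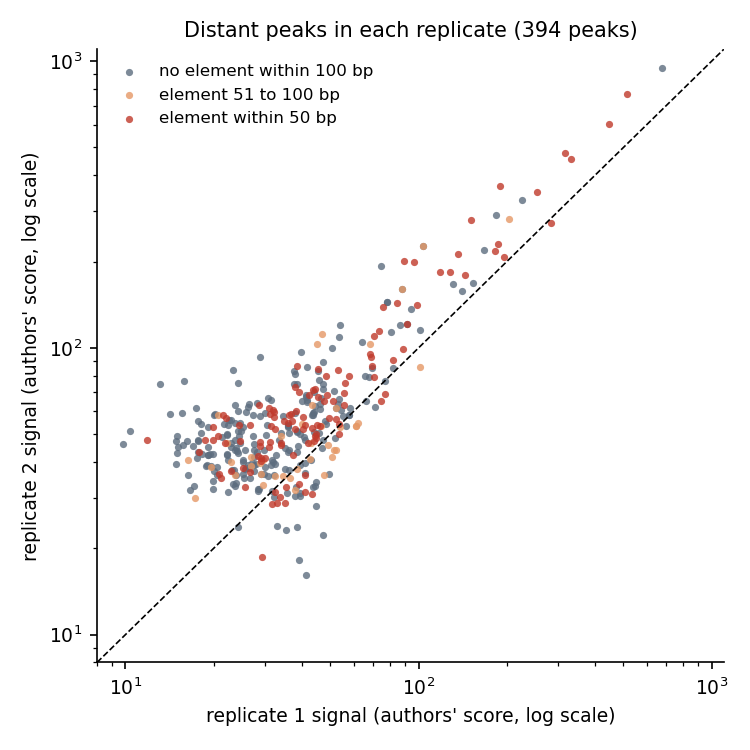
Signal of each distant peak in replicate 1 (horizontal axis) and replicate 2 (vertical axis), both the authors' score on log scales, for the 394 peaks with a region in both; the dashed line marks equal values. Most points lie above the line, where the median ratio of 1.48 puts them, and the strongest peaks in one replicate are the strongest in the other.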

How the data were processed

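SNPC-1.1 chromatin immunoprecipitation with sequencing was done on 2 biological replicates. The authors deposited lists of regions called against a control, separately for each replicate and for both pooled, and a list of peaks kept at a threshold on the irreproducible discovery rate, per the deposited text listings. The signal per region is the authors' deposited score, whose scale is not stated. The sources used here name no peak caller or aligner. Only the region coordinates, signal and summit columns of the lists were used.

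The ce11 reproducible list was joined to Ensembl release 115 genes and RefSeq WBcel235 sequence with Python 3.11.15, numpy 2.4.6, pandas 2.3.3, scipy 1.17.1, networkx 3.6.1, matplotlib 3.10.9 and BLAST+ 2.17.0. Shares carry exact Clopper-Pearson intervals at 95% confidence, and medians have order-statistic intervals. Peaks overlapped a region at 1 bp or more. Matrix and distance steps were tested on simulated data.

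The members and gene lists were chosen with earlier results of these data known. The matrix, its threshold, the groups of related sequences, copy numbers, the 3' end window, the chromosome ends and the ribosomal count were chosen after seeing the data. The search for ATAG before the core was not planned. Named are the genes at the 20 strongest distant peaks, hosts of 3 or more, up to 3 peaks of each related group, peaks at the 500 bp limit, peaks with a B box and listed genes.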

Additional observations from a re-analysis of the deposited data

How the results depend on the processing

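Of 90 alternatives computed, 66 left the value inside its interval (for the number of peaks, within 1.5 times) and 24 moved it. With no gene start within 250 bp there were 598 distant peaks, 40.6% of nuclear peaks, of which 35.3% were intronic, 11.2% on X, 20.9% with a promoter word and 24.2% with the element. With 1000 bp, 18.4% of nuclear peaks were distant and 49.4% of them intronic. Among the 750 highest peaks 182 were distant, with a median signal of 114, and 50.5% were intronic, 33.5% had a promoter word, 40.7% the element and 17.6% a 3' end. Searching 100 bp either side gave 30.7% with a promoter word and 40.3% with the element, and a score exceeded by 1 in 100 windows also gave 40.3%. A 3' end within 100 bp was found in 15.6% and within 400 bp in 28.7%. Counting summit words of 36 bases that were not unique in place of masked bases gave 9.07%. Without the related groups X held 21.6% of peaks with the element. The alternatives for the element, the 3' end and the related groups were chosen after seeing the data. The causes were not tested.

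The 1500 strongest regions of 1 replicate's own list were also taken in place of the reproducible list. This cut set the list size in advance. There were then 394 to 457 distant peaks, 26.7 to 31.1% of nuclear peaks. Of the distant peaks, 41.1 to 41.9% were intronic, 14.97 to 16.4% on X and 36.8 to 37.1% masked. A promoter word was in 21.7 to 22.8%, the element in 26.5 to 28.4%, and 23.2 to 24.1% were near a 3' end. Median signal of the distant peaks in these cut lists was 33.7 to 51.4. No paired analysis was possible because there was 1 group. Read depth is unknown, so peaks below the threshold are not shown to be absent.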
